A study of Mus musculus with 2 samples.

Results

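The fibroblast growth factor (FGF) genes were described in the whole heart of newborn mice. Members were the genes whose symbol starts with Fgf and that have a transcript annotated as protein-coding, 31 of 55536 annotated genes and of 22028 protein-coding ones. The symbols took in 18 secreted ligands, 4 FGF homologous factors, 4 receptors with a kinase, the receptor-like Fgfrl1, a pair of FGF binding proteins, and Fgfr1op and Fgfr1op2, which are named for human gene fusions with FGFR1 and do not belong to the FGF family. Total RNA was sequenced from hearts of female B6CASTF1/J mice, F1 offspring of C57BL/6J and CAST/EiJ, at 4 days of age, untreated as far as the labels say. There were 2 libraries, biological replicates 1 and 2 of a single group. The labels give both the same donor, so that they are separate animals rests on the replicate numbers, and the spread between them may be technical. No contrast between conditions exists, and 2 libraries of a single group leave no replication for a test between them, so no p-value was computed.

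Secreted FGFs act outside the cell on the tyrosine kinase receptors Fgfr1 to Fgfr4, with heparan sulfate chains as a cofactor for the paracrine ligands and klotho proteins as co-receptors for the endocrine ones. An activated receptor signals through the adaptor Frs2 and the Ras and MAP kinase cascade, which switches on ETS transcription factors and the Sprouty, Spred and Dusp6 inhibitors that dampen the signal. In the mouse heart, Fgf9, Fgf16 and other ligands of the epicardium and endocardium are known for driving growth of the embryonic myocardium. FGF homologous factors are not secreted: they stay in the cell and bind the tail of voltage-gated sodium channels.

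What a receptor binds depends on the second part of its last immunoglobulin domain, which is encoded in Fgfr1, Fgfr2 and Fgfr3 by a choice between neighbouring exons named IIIb and IIIc. Forms with IIIb are known from epithelia and forms with IIIc from mesenchyme. Exons of both forms are shown because the receptor result below turns on which form is used. Each is printed from the annotated mm10 transcripts, 5′ to 3′ on the strand of its gene, and capitals mark a run of 7 bases, one of 2 equally long longest runs that the IIIb exons of Fgfr2 and Fgfr3 share.
Fgfr3 IIIc, chr5:33732117-33732261, plus strand: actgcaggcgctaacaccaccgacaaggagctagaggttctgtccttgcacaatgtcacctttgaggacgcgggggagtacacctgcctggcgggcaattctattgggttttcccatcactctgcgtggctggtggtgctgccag
Fgfr3 IIIb, chr5:33731281-33731431, plus strand: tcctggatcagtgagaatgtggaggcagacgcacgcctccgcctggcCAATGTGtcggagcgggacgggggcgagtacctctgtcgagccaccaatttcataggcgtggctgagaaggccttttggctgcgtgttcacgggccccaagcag
Fgfr2 IIIb, chr7:130199758-130199905, minus strand: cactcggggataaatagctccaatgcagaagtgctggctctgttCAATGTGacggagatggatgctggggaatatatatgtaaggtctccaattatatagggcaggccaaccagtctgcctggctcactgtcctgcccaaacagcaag

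The Fgfr3 IIIc exon measured 145 bases and the IIIb exon 151, and they were identical at 49.7% of positions over the longer exon. The IIIb exon of Fgfr2 measured 148 bases and was 51.0% identical to that of Fgfr3. Between Fgfr2 IIIb and Fgfr3 IIIc the identity was 56.1%.

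Expected counts, estimates of the reads per gene that need not be whole, totalled 36175363 in replicate 1 and 32509660 in replicate 2. Levels are in TPM, transcript abundance per length scaled to a fixed total. CPM is the count scaled to the library total alone, and a count of 0 allows up to 3 counts, or 0.0829 CPM in replicate 1 and 0.0923 CPM in replicate 2. That bound, like every interval given, holds for counting error alone, because the reads carry no molecular identifiers and may copy the same molecule. The 6 cardiomyocyte markers, Myl2 (8324 ± 178 TPM, SD, n = 2), Actc1 (7516 ± 367), Myh6 (6949 ± 126), Tnnt2 (3101 ± 195), Tnni3 (2147 ± 94.4) and Pln (1423 ± 65.0), were all high and summed to 29434 TPM in replicate 1 and 29487 TPM in replicate 2. All 6 fibroblast markers (1500 and 1807 TPM), all 5 endothelial markers (834 and 898 TPM) and all 5 smooth muscle markers (710 and 645 TPM) were present too, so the values are those of a mixed tissue. Red blood cell markers stood at 17268 TPM in replicate 1 against 220 TPM in replicate 2, all 5 at more than 2-fold, and 5 of 6 skeletal muscle markers were also more than 2-fold higher in replicate 1. Neither lung markers (0.77 and 1.16 TPM) nor adipocyte markers (8.15 and 2.10 TPM) had a member with a TPM of at least 1 in both libraries. No marker named for these lists was at 0 in both.

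Of the 31 members, 15 were expressed, here meaning a TPM of at least 1 in both libraries, against 54.2% of the 22015 nuclear protein-coding genes. The other members reached at most 0.91 TPM in replicate 1 and 0.74 TPM in replicate 2. Of these, 12 had some counts and 4 had none in either library. In bulk tissue, fewer cells of a type and less RNA per cell cannot be told apart, and this holds for every level below. The plot of all members by role shows the gap between the expressed ligands and the rest.

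**Figure D1:**
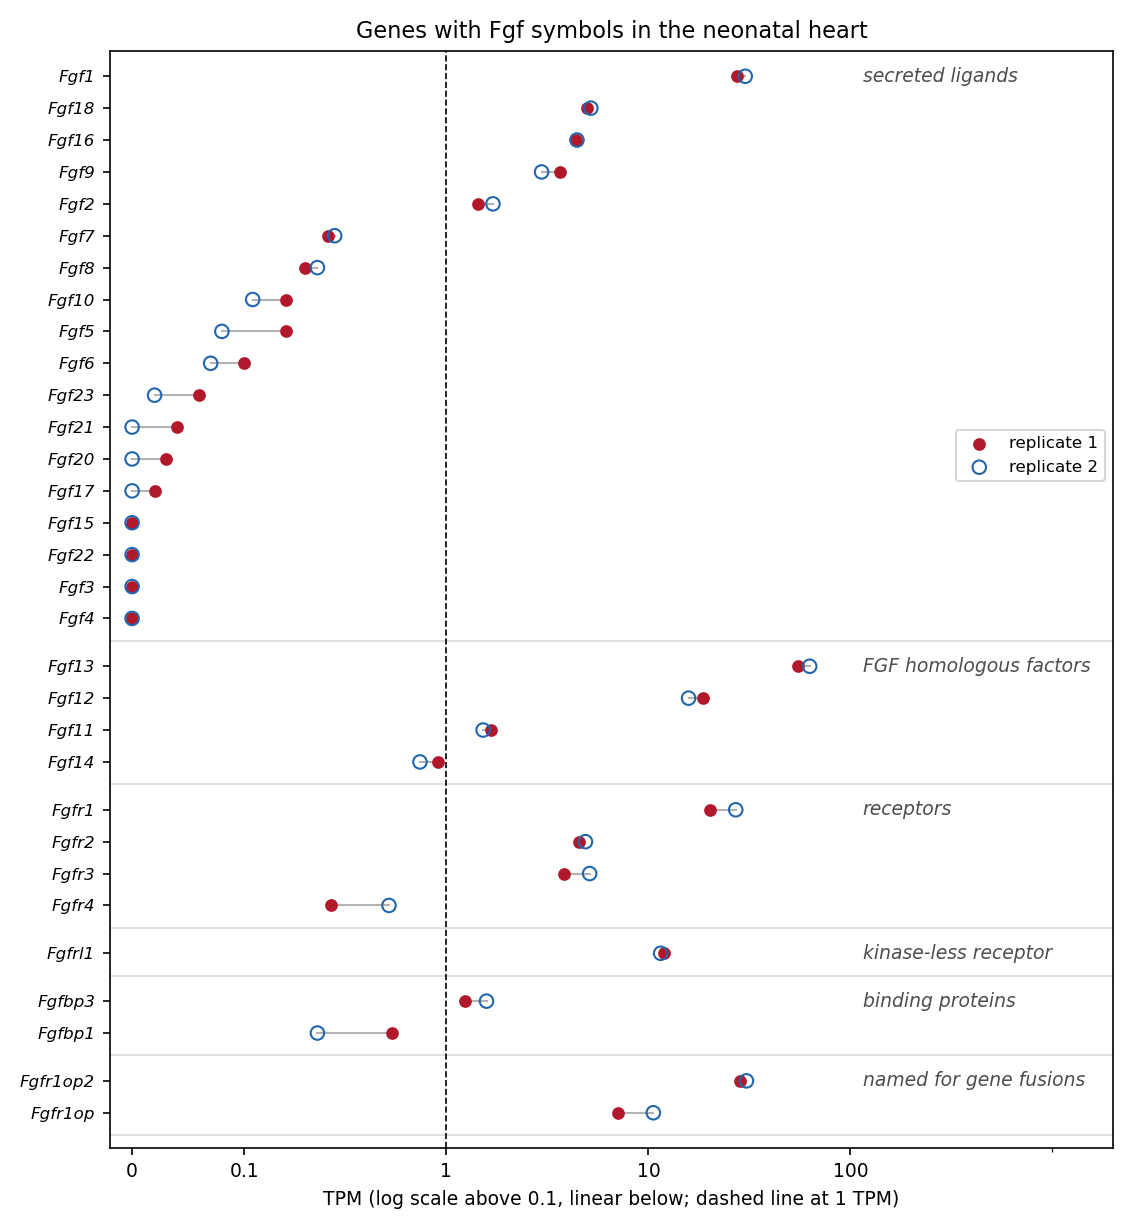
TPM of all 31 members in replicate 1 (filled red) and replicate 2 (open blue), grouped by role and sorted by mean level, on an axis that is logarithmic above 0.1 and linear below. Among 18 secreted ligands 5 lie right of the dashed line at 1 TPM in both libraries, and Fgf13, at 54.98 and 62.86 TPM, is highest of all.

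Among the secreted ligands, Fgf1 accounted for most of the message. Fgf1, which lacks a classical signal peptide and is known to bind every FGF receptor (chromosome 18, 38838673 to 38929472, minus strand), stood at 27.34 TPM in replicate 1 and 30.15 TPM in replicate 2, from 1915 and 1696 counts. That is 28.7 ± 1.99 TPM (SD, n = 2), above 75.9% of the 11935 expressed nuclear protein-coding genes, whose median was 12.5 TPM. Its subfamily partner Fgf2 (chromosome 3, 37348346 to 37410108, plus strand), exported like it without a signal peptide, had 1.43 and 1.70 TPM from 158 and 151 counts. Fgf2 shares 640 exonic bases with Nudt6 on the opposite strand, which had 163 and 150 counts, and the strand setting of the counting is not given in the sources used here. Up to that limit, the classic pair differed widely: Fgf1 held 65.3% ± 1.98 of the ligand TPM and Fgf2 3.55% ± 0.296.

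The other expressed ligands above Fgf2 kept the same order by TPM in both hearts. Fgf18, a ligand of the Fgf8 subfamily known for bone and lung growth (chromosome 11, 33117430 to 33147400, minus strand), had 4.94 TPM in replicate 1 and 5.19 TPM in replicate 2, from 131 and 120 counts. Fgf16, of the Fgf9 subfamily and known as a signal of the perinatal mouse heart (chromosome X, 105764279 to 105774939, plus strand), had 4.40 and 4.43 TPM, from 191 and 168 counts, the closest match between the libraries among the expressed members by TPM. Fgf9 itself (chromosome 14, 58070547 to 58112720, plus strand) had 3.66 TPM in replicate 1 and 2.96 TPM in replicate 2, from 208 and 150 counts. Their shares of the ligand TPM were 11.5% ± 0.0458 for Fgf18, 10.04% ± 0.342 for Fgf16 and 7.55% ± 1.42 for Fgf9. In CPM, Fgf18 held 5.03% ± 0.183, below Fgf16 (7.19% ± 0.0549), Fgf9 (7.12% ± 0.942) and Fgf2 (6.20% ± 0.411), and by merged exon length Fgf18 (17.0% ± 0.636) and Fgf16 (17.5% ± 0.154) were level. The third gene of that subfamily, Fgf20, had 1 count in replicate 1 and 0 in replicate 2.

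The remaining 13 ligands had from 0 to 18 counts in a library. Of the Fgf7 subfamily, whose members signal to epithelia through the IIIb form of Fgfr2, none of 4 was expressed: Fgf7 had 0.26 and 0.28 TPM, Fgf10 had 0.16 and 0.11 TPM, and Fgf3 and Fgf22 were at 0 in both. The same held for the 3 genes of the Fgf4 subfamily, with Fgf5 at 0.16 and 0.08 TPM, Fgf6 at 0.10 and 0.07 TPM and Fgf4 at 0 in both. In the Fgf8 subfamily, Fgf8 had 4 and 3 counts and Fgf17 had 1 and 0. The endocrine ligands, which reach distant organs through the blood, were likewise not expressed. Fgf23, the phosphate-regulating hormone of bone, had 3 and 1 counts, Fgf21, known from liver, had 1 and 0, and Fgf15, the bile acid signal of the ileum, was at 0 in both. At these depths 3 counts would have been 0.105 TPM of Fgf15 in replicate 1 and 0.120 TPM in replicate 2, so a count of 0 does not exclude lower levels. In the second quantification Fgf15 had 0 counts in replicate 1 and 1.00 in replicate 2, or 0.0308 TPM.

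Several members with little or no message lie side by side in the genome. The neighbours Fgf3 (144838083 to 144844436), Fgf4 (144847367 to 144865243) and Fgf15 (144896531 to 144900953) on chromosome 7 were all at 0 in both libraries of the first quantification. Fgf6 (127015586 to 127028187) and Fgf23 (127072902 to 127081408) lie next to each other on chromosome 6 and both stayed at or under 0.10 TPM. The fourth member at 0, Fgf22, is on chromosome 10 and overlaps the opposite-strand gene Rnf126 in 82 exonic bases. Rnf126 had 740 and 704 counts while Fgf22 had none.

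The FGF homologous factors were the most abundant group by TPM, and Fgf13 the highest member of all. Fgf13, known as the main homologous factor of mouse heart muscle (chromosome X, 59062145 to 59568071, minus strand), had 54.98 TPM in replicate 1 and 62.86 TPM in replicate 2, from 1600 and 1502 counts. Its mean of 58.9 ± 5.57 TPM (SD, n = 2) was above 89.1% of expressed nuclear protein-coding genes. Fgf12, the main cardiac factor known from human heart (chromosome 16, 28160098 to 28753068, minus strand), had 18.62 and 15.81 TPM from 674 and 482 counts. Fgf11 followed far below with 1.66 and 1.52 TPM from 126 and 108 counts, and Fgf14, known mostly from neurons, had 0.91 and 0.74 TPM from 89 and 62 counts. Fgf13 held 74.9% ± 3.88 of the TPM of these 4 genes and Fgf12 22.0% ± 3.47. Among 9 sodium channel alpha subunits, the proteins that these factors bind, 2 were expressed, beside 54.2% of nuclear protein-coding genes. One of them, Scn4a, the channel of skeletal muscle, had 1.09 and 1.74 TPM, and Scn10a, under the threshold, had 0.77 and 0.70 TPM.

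By summed TPM the 4 homologous factors reached 76.2 in replicate 1 and 80.9 in replicate 2, the 18 secreted ligands 42.8 and 45.2, and the 4 kinase receptors 28.7 and 37.6. The distance between these groups depended on how transcript length was taken into account. In CPM, with no correction for length, the homologous factors summed to 67.5 ± 1.80, the secreted ligands to 72.7 ± 1.66 and the receptors to 71.6 ± 3.74. Counts set per kilobase of all merged exons of a gene, a scale added after the data were seen, gave 32.2 ± 0.275 for the homologous factors, 37.5 ± 0.0559 for the ligands and 16.0 ± 1.21 for the receptors. The first place of the homologous factors was therefore lost on both of those scales, while Fgf13 stayed first of all members per merged exon length (23.2 ± 1.24) and stood behind Fgf1 (52.6 ± 0.543) and Fgfr1 (51.7 ± 2.69) in CPM (45.2 ± 1.39).

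The deposited quantifications divided the Fgf13 reads differently among its transcripts. Fgf13 has several first exons far apart, whose use changes the N-terminus of the protein. In the first quantification, a single transcript with its own first exon, Fgf13-202 (192 codons), held 58.9% of the gene's counts in replicate 1 and 52.4% in replicate 2. In the second it held 5.40% and 0.00908%. There, the 5 transcripts that start at the most distal first exons, 59567140 to 59568071, held 76.4% and 83.3%, against 21.3% and 25.4% in the first. Transcripts of the most proximal first exons kept similar shares, 19.8% and 22.2% in the first quantification and 18.3% and 16.7% in the second. By TPM, which gives short transcripts more weight, the distal group held the most in both: 50.05% and 51.4% in the first quantification and 82.0% and 80.7% in the second, beside 30.6% and 25.6%, then 2.31% and 0.00358%, for Fgf13-202. Each quantification gave a similar split in both libraries.

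For Fgf12 the 2 quantifications were closer. The coding transcript Fgf12-205 (181 codons), which starts at the most distal first exon, held 71.7% ± 2.49 of Fgf12 TPM in the first and 67.4% ± 9.78 in the second. The longer coding transcript Fgf12-201 (243 codons) had 0.16 and 0.35 TPM. The noncoding transcript Fgf12-206 took 366 and 228 counts, or 54.3% and 47.2% of the gene's counts in the first quantification and 55.8% and 47.7% in the second. Its 2689 bases against 831 for Fgf12-205 make its share of TPM smaller, 24.9% ± 3.13. About as many Fgf12 reads were thus placed on this noncoding transcript as on all other Fgf12 transcripts together, in both quantifications. Fgf11 was led in both libraries by Fgf11-202 (225 codons), at 72.5% ± 27.6 in the first quantification and 91.2% ± 12.4 in the second, over Fgf11-201 (197 codons).

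**Figure D2:**
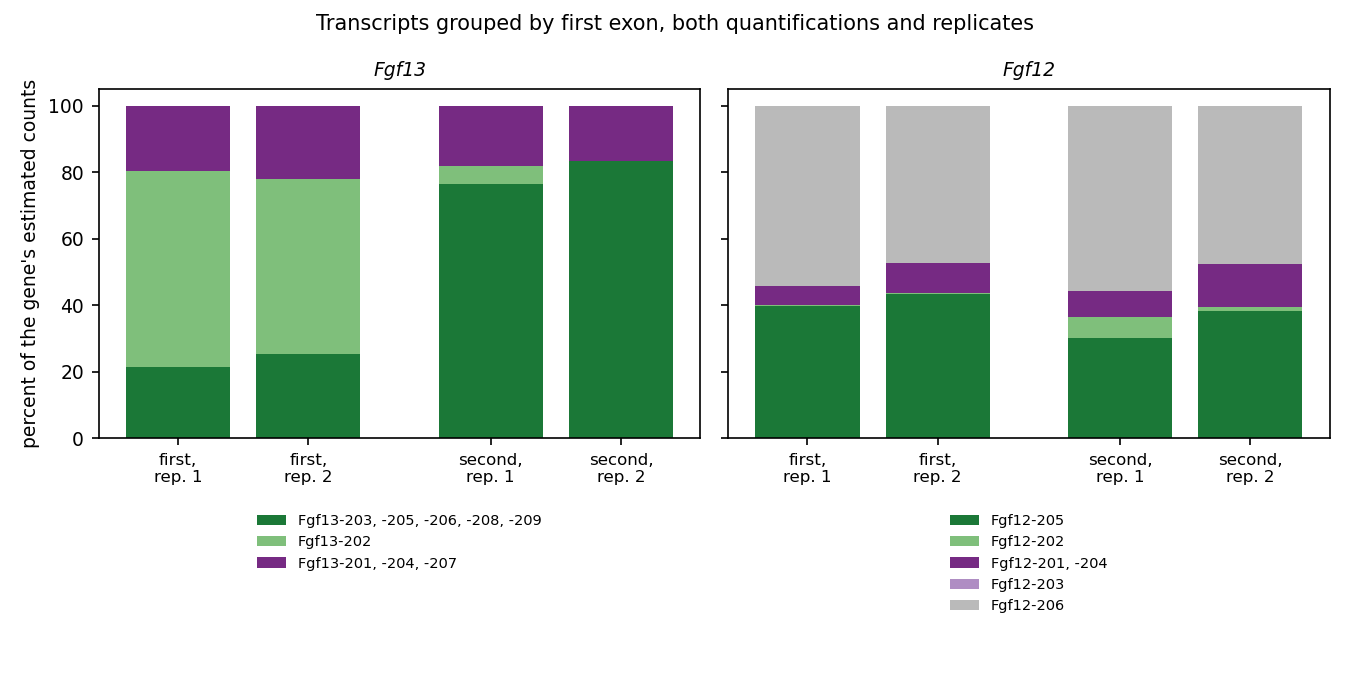
Percent of the estimated counts of Fgf13 (left) and Fgf12 (right) held by transcripts grouped by first exon, from distal (bottom) to proximal (top), in each quantification and replicate. Fgf13-202 fills 58.9% and 52.4% of the first pair of bars and nearly vanishes in the second pair, while the Fgf12 bars keep Fgf12-205 and Fgf12-206 as the main parts throughout.

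Among the receptors, Fgfr1 was the main one and IIIc the only form of it that was given counts. Fgfr1 (chromosome 8, 25513654 to 25575718, plus strand) had 20.12 TPM in replicate 1 and 27.06 TPM in replicate 2, from 1802 and 1743 counts. Fgfr2 (chromosome 7, minus strand) had 4.52 and 4.88 TPM from 319 and 304 counts, and Fgfr3 (chromosome 5, 33721674 to 33737068, plus strand) had 3.83 and 5.12 TPM from 348 and 340 counts. Fgfr4, which has no such choice of exons and is known from liver, stayed under the threshold with 0.27 and 0.52 TPM from 24 and 25 counts. Fgfr1 held 71.0% ± 1.41 of the receptor TPM, Fgfr2 14.4% ± 1.94, Fgfr3 13.5% ± 0.211 and Fgfr4 1.16% ± 0.314. The ranges of Fgfr2 and Fgfr3 overlapped on this scale. Fgfr3 was higher without overlap in the second quantification (7.15 and 11.28 TPM, against 5.18 and 6.15 TPM for Fgfr2), in CPM (9.62 and 10.46 against 8.81 and 9.36) and by merged exon length (2.73 and 3.07 against 1.73 and 1.90).

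The gap in Fgfr1 TPM between the libraries was not matched by its counts. Reads were placed on short transcripts in replicate 2 more than in replicate 1: Fgfr1-218, of 385 bases, had 1.03 TPM in replicate 1 and 3.98 TPM in replicate 2, and Fgfr1-211, of 734 bases, had 0 and 2.46 TPM. A few reads on a short transcript weigh heavily in TPM. The 4 transcripts with the IIIc exon were steadier, at 12.74 and 13.69 TPM in all, from 1479 and 1370 counts. They are led by Fgfr1-202 (820 codons), with 30.2% ± 3.81 of Fgfr1 TPM, ahead of Fgfr1-203 (733 codons) with 13.7% ± 1.04 and Fgfr1-201 (822 codons) with 12.6% ± 3.48.

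Every Fgfr1 transcript with a complete reading frame and a count held the IIIc exon. Transcripts with the Fgfr1 IIIb exon were given 0 counts in both libraries and both quantifications. Such a 0 is how each quantification divided reads among overlapping transcripts, and sets no bound on the form. Of transcripts with either exon, IIIc therefore held 100% of the TPM in each library. The retained-intron transcript Fgfr1-206, at 1.73 and 1.47 TPM from 157 and 117 counts, begins inside the IIIb exon and runs on to the end of the IIIc exon, and was counted in neither form. For Fgfr2, IIIc transcripts summed to 1.84 and 2.27 TPM and IIIb transcripts to 0.35 and 0.33 TPM, an IIIc share of 85.7% ± 2.33. The close IIIb sums came from different transcripts. They lay on Fgfr2-208 in replicate 1 (21.7 counts, 0 in replicate 2) and on Fgfr2-210 in replicate 2 (16.8 counts, 0 in replicate 1). For Fgfr3, IIIc transcripts had 2.03 and 2.33 TPM and IIIb transcripts 0.60 and 0.92 TPM, a share of 74.4% ± 3.88. The second quantification gave 74.5% ± 11.5 for Fgfr2 and 57.6% ± 3.49 for Fgfr3. By counts, IIIc held 90.0% in replicate 1 and 92.0% in replicate 2 for Fgfr2 in the first quantification and 61.4% and 77.6% in the second. For Fgfr3 the count shares were 74.9% and 81.2% in the first and 64.5% and 95.2% in the second. In replicate 2 of the second, Fgfr3 IIIb had 11.6 counts beside 230 for IIIc, with Fgfr3-212, a partial transcript of 601 bases, at 1.39 of its 1.83 TPM. In replicate 1 of the second, Fgfr3 IIIc had 2.12 TPM, with 0.351 TPM on the retained-intron transcript Fgfr3-204, which was counted as IIIc. Fgfr3 IIIb had 1.72 TPM there, with 0.785 TPM on Fgfr3-213, a partial transcript of 668 bases. Without Fgfr3-204 the forms would be nearly level there by TPM. As counted, IIIc led in all 3 receptors, both libraries and both quantifications. How much IIIb accompanied it in Fgfr2 and Fgfr3 was not fixed by the data.

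Transcripts with either exon covered 63.3% and 50.6% of Fgfr1 TPM, 48.5% and 53.3% of Fgfr2 TPM and 68.7% and 63.5% of Fgfr3 TPM in the first quantification. The rest lay on partial or noncoding transcripts that show neither exon. Another of these, Fgfr2-217, had 0.96 and 1.09 TPM and joins Fgfr2 exons to a pair of first exons 2908817 bases upstream, which share 314 bases with Ctbp2. It widens the annotated span of Fgfr2 to chromosome 7, 130162451 to 133123350. Ctbp2 had 1391 and 1260 counts on the same strand, so the level of Fgfr2-217 is uncertain. In the first quantification Fgfr2-217 held 63.0 and 62.3 counts, and 21.8% ± 0.710 of Fgfr2 TPM. The level of Fgfr2, its share among the receptors and its comparison with Fgfr3 therefore carry the same limit.

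**Figure D3:**
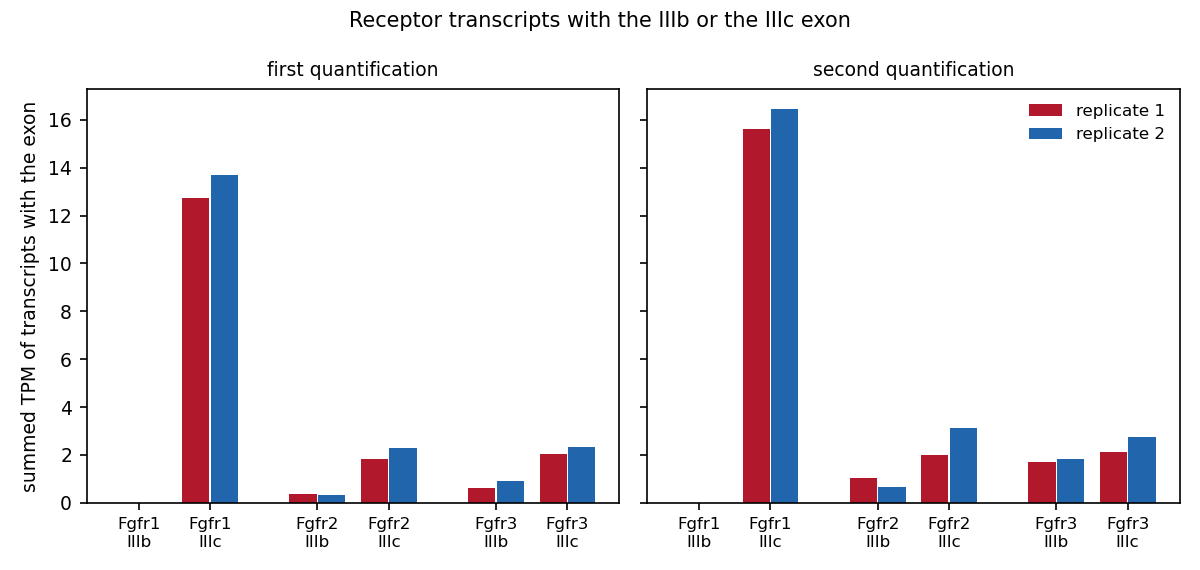
Summed TPM of transcripts that hold the IIIb or the IIIc exon of each receptor, in replicate 1 (red) and replicate 2 (blue), for the first (left) and second (right) quantification. The Fgfr1 IIIc bars reach 12.74 and 13.69 TPM on the left with no IIIb bar beside them, and the IIIb bars of Fgfr2 and Fgfr3 are taller on the right.

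The modulators of ligand and receptor access were present at moderate to low levels. Fgfrl1, a receptor that binds FGFs and lacks the tyrosine kinase domain (chromosome 5, 108692382 to 108706924, plus strand), had 11.95 TPM in replicate 1 and 11.50 TPM in replicate 2, from 557 and 536 counts. It stood above Fgfr2 and Fgfr3 in both libraries. Its full transcript Fgfrl1-201 (529 codons) led with 51.2% ± 3.50 of its TPM. Of the binding proteins, which release FGFs from heparan sulfate, Fgfbp3 (chromosome 19, 36917550 to 36919615, minus strand) had 1.23 and 1.58 TPM from 58 and 65 counts, and Fgfbp1 had 0.54 and 0.23 TPM from 16 and 6 counts. The genes named for fusions were both expressed. Fgfr1op2 (chromosome 6, 146577203 to 146599198, plus strand) had 28.26 and 30.57 TPM from 1534 and 1492 counts, level with Fgf1 on this scale. In the second quantification Fgfr1op2 had 48.6 ± 0.176 TPM against 28.2 ± 1.15 for Fgf1, and in CPM 44.1 ± 2.47 against 52.6 ± 0.543. Fgfr1op, which encodes a centrosomal protein (chromosome 17, 8165501 to 8196804, plus strand), had 7.10 and 10.58 TPM from 505 and 598 counts.

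Ranked by mean TPM, the 15 expressed members ran from Fgf13 to Fgfbp3, and 9 of 14 neighbouring pairs had ranges that did not overlap between libraries. The pairs that overlapped were Fgfr1op2 with Fgf1, Fgfr2 with Fgfr3, Fgfr3 with Fgf16, Fgf11 with Fgf2, and Fgf2 with Fgfbp3. Some of the other gaps were narrow, as for Fgf1 over Fgfr1, where the lowest Fgf1 value of 27.34 TPM lay just above the highest Fgfr1 value of 27.06 TPM. That pair changed places in the second quantification, where Fgfr1 had 31.3 ± 6.24 TPM and Fgf1 28.2 ± 1.15 TPM. Of 13 expressed members with more than 1 annotated transcript, 11 had the same leading transcript in both quantifications. The exceptions were Fgf13 and Fgfr3, whose lead passed from Fgfr3-201 to Fgfr3-210, both of 800 codons. Fgf1-201 (155 codons) led Fgf1 at 54.7% ± 3.82, Fgf9-201 (208 codons) led Fgf9 at 63.2% ± 0.907 and Fgf2-208 (154 codons) led Fgf2 at 61.3% ± 2.67. Fgf16 and Fgfbp3 have a single annotated transcript, of 207 and 250 codons.

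Below the lead, the split of reads among transcripts differed more between quantifications than between hearts for several ligands. For Fgf18, the full transcript Fgf18-201 (207 codons) held 54.1% ± 1.89 of the TPM in the first quantification and 99.6% ± 0.557 in the second, and the shorter Fgf18-202 (98 codons) took the rest. For Fgf1, Fgf1-205 (49 codons) held 25.4% ± 0.230 in the first and was at 0 in the second. Fgf1-202, which encodes the same 155 codons as the lead, held 0.659% ± 0.931 in the first and 11.4% ± 2.89 in the second, and Fgf1-208 (104 codons) 15.8% ± 1.29 and 13.3% ± 3.66. For Fgf2, Fgf2-204 held 3.12% ± 4.42 and 27.2% ± 5.56. Fgf9-203 (91 codons) was closer between them, at 29.9% ± 0.230 and 37.4% ± 1.05. Among the Fgf13 transcripts by TPM, Fgf13-205 (97 codons) held 26.6% ± 1.35 in the first quantification and 36.3% ± 1.04 in the second, and the noncoding Fgf13-207 16.2% ± 2.98 and 13.7% ± 3.88. Fgf13-206 held 16.7% ± 1.03 in the first and was at 0 in the second, while Fgf13-203 (187 codons) held 0.636% ± 0.900 and 22.5% ± 0.327 and Fgf13-208 0.852% ± 0.639 and 17.7% ± 2.15.

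Among the receptors, some transcripts varied as much between the hearts as between the quantifications. The lead of Fgfr2, Fgfr2-215 (840 codons, with IIIc), held 16.2% of the TPM in replicate 1 and 33.3% in replicate 2, or 24.8% ± 12.1, in the first quantification and 17.6% ± 10.9 in the second, and Fgfr2-207 (723 codons, with IIIc) 18.9% ± 8.15 and 14.8% ± 5.69. Fgfr2-211 (726 codons), which holds the IIIb exon, was at 0 in the first and at 15.1% ± 6.32 in the second, where it made up the whole Fgfr2 IIIb sum. For Fgfr3, the IIIb transcript Fgfr3-203 (802 codons) held 11.7% ± 5.52 and 6.53% ± 9.24. The retained-intron transcript Fgfr3-205 held 18.0% ± 0.460 and 10.4% ± 1.00. For Fgfrl1, Fgfrl1-202 (438 codons) held 25.2% ± 5.45 and 28.04% ± 10.1, and Fgfrl1-204 23.6% ± 8.95 and 20.03% ± 6.89. The genes named for fusions were spread over several transcripts, with Fgfr1op2-202 (172 codons) at 38.8% ± 1.70 and Fgfr1op-201 (379 codons) at 48.7% ± 2.77 in the first quantification.

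Between the hearts, FGF genes passed the fold and interval rules at about the share of all genes. The ratio of replicate 1 over replicate 2 was taken on counts scaled by TMM, a factor that sets the bulk of genes equal, with an exact 95% Clopper-Pearson interval. None of 15 members tested was past 2-fold with an interval excluding equality, against a background of 0.860% (117 of 13598 genes tested). Their median log2 ratio was −0.04, beside 0.00 over all genes tested, and 6 members were higher in replicate 1 and 9 in replicate 2. Intervals excluded equality for 2 members in the direction of replicate 1, where the background was 13.0%, and for 1 in the direction of replicate 2, where it was 10.7%. With 2 libraries such a difference has no replicate check.

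The members whose intervals excluded equality were Fgf12, Fgf9 and Fgfr1op. Fgf12 had a log2 ratio of 0.37 (0.20 to 0.54) from 674 and 482 counts and Fgf9 of 0.36 (0.05 to 0.67) from 208 and 150 counts. Both were higher in replicate 1, as were all 5 atrial markers (2043 TPM in replicate 1 and 1718 TPM in replicate 2, median log2 ratio 0.31) and all 6 epicardial markers (82.9 and 66.8 TPM, median 0.52). Larger shifts the same way were seen for red blood cell (5 of 5 tested, median 6.34) and skeletal muscle markers (6 of 6, 3.27). Adipocyte (2 of 2, 2.02) and neural or Schwann cell markers (2 of 3, 1.38) also had higher medians in replicate 1. The part of any of these cell types in the difference was not tested. Fgfr1op had a log2 ratio of −0.35 (−0.53 to −0.18), so it was lower in replicate 1, as were all 6 fibroblast markers (median −0.15) and all 5 macrophage markers (26.9 and 39.8 TPM, median −0.27), whose part was not tested either. Scaled by the spike-ins, the median of all genes moved to −0.13 and that of the members to −0.17. Equality was then excluded for 1 member in the direction of replicate 1 and 5 in that of replicate 2. Over all 13598 genes tested, these numbers were 397 and 6017. Fgf12 stood at 0.24 and Fgfr1op at −0.49, while Fgf9, at 0.23 (−0.08 to 0.54), no longer excluded equality. Fgf9 also lost the call in the second quantification, at 0.21 (−0.08 to 0.51). Scaled by total counts, Fgfr1 (−0.11) and Fgfr1op2 (−0.11) joined the other 3, which makes 5 members, beside 3538 of 13598 genes.

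**Figure D4:**
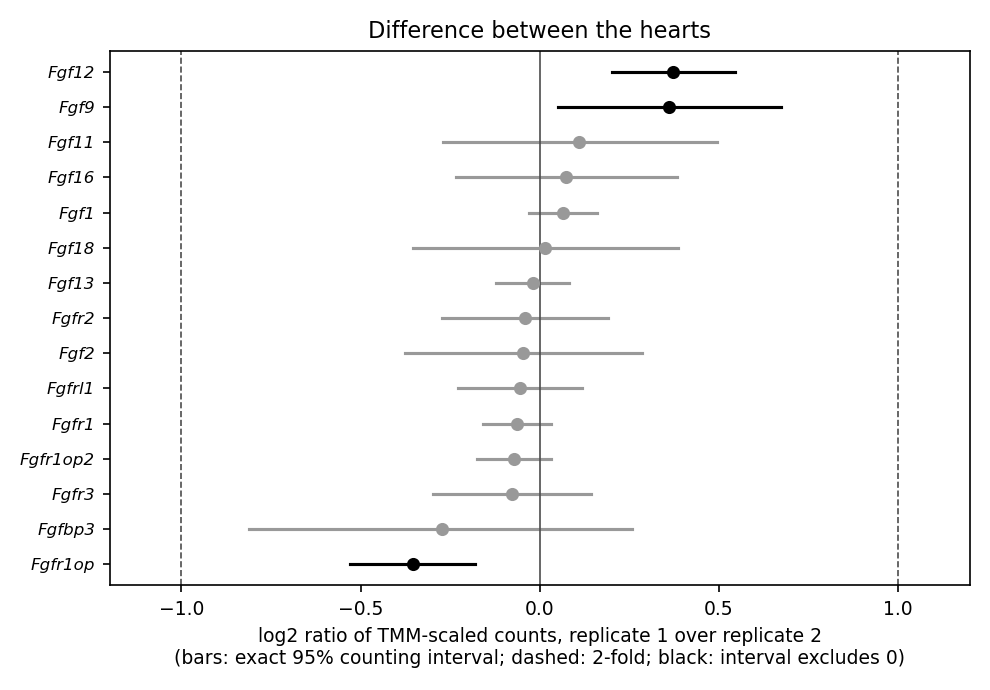
Log2 ratio of TMM-scaled counts, replicate 1 over replicate 2, for the 15 tested members with exact 95% counting intervals. All points lie between the dashed lines at 2-fold, and the black intervals of Fgf12, Fgf9 and Fgfr1op exclude 0.

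Genes that work with the FGFs ranged from lists expressed in full to lists with no expressed member, beside 54.2% of nuclear protein-coding genes expressed. All 18 listed signal transducers were expressed. Among the highest were the kinase Map2k2 (63.6 ± 1.52 TPM) and the adaptor Grb2 (58.1 ± 7.55). The receptor-docking adaptor Frs2 had 10.9 ± 0.735 TPM and its relative Frs3 2.46 ± 0.198. Of 10 feedback inhibitors 8 were expressed, the highest being Spry2 (29.4 ± 0.156), Spry1 (19.0 ± 2.28), the ERK phosphatase Dusp6 (17.3 ± 0.453) and Spred1 (14.3 ± 0.714). Spred3, at 0.96 and 1.00 TPM, just missed the threshold, and Spry3 had 0.03 and 0.06 TPM. All 3 ETS factors known as targets of the pathway were present, with Etv1 at 8.57 ± 0.262, Etv5 at 5.76 ± 0.933 and Etv4 at 2.71 ± 0.453.

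For the heparan sulfate system, core proteins that carry these chains were expressed in 11 of 12 cases, led by perlecan, Hspg2, at 207 ± 0.156 TPM, then Gpc1 (59.7 ± 0.898), agrin, Agrn (49.9 ± 0.325) and Gpc3 (34.6 ± 1.10), with Gpc5 at 0 in both libraries. Enzymes that build or edit the chains were expressed in 14 of 18 cases, the highest being Sulf2 (55.2 ± 2.76), Ndst1 (49.5 ± 1.05), Extl3 (41.3 ± 1.34) and Sulf1 (29.8 ± 0.113). Of the enzymes tested between hearts, 13 of 14 had a ratio above 1 in replicate 1 over replicate 2, with a median log2 of 0.08 and none past 2-fold. Under spike-in scaling, the shift of −0.13 in the median of all genes exceeds that value.

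None of 3 klotho co-receptors was expressed: Kl, the partner of Fgf23, had 0.03 and 0.02 TPM, Klb, the partner of Fgf15 and Fgf21, had 0.21 and 0.07 TPM, and the related Lctl had 0.30 and 0.12 TPM. Endocrine ligands and klotho genes were thus both under the threshold in the same libraries in which Fgfr1 stood at 20.12 and 27.06 TPM. Among the FLRT membrane partners of the receptors, 1 of 3 was expressed, Flrt2 at 7.79 ± 0.877 TPM. Its log2 ratio of replicate 1 over replicate 2 was 0.29, with an interval that excluded equality, as for 13.0% of all genes tested in that direction.

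**Figure D5:**
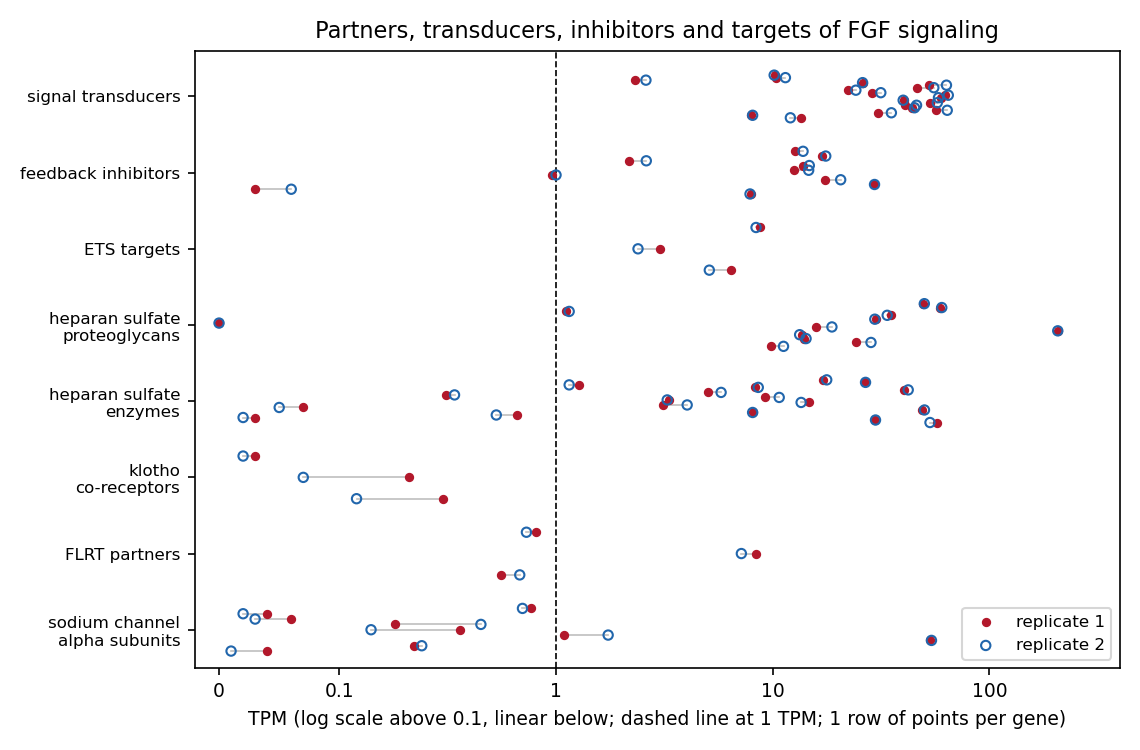
TPM of each gene in the lists of FGF signaling partners, in replicate 1 (filled red) and replicate 2 (open blue), on an axis logarithmic above 0.1 and linear below. All 18 transducers lie right of the dashed line at 1 TPM, and all 3 klotho co-receptors lie left of it.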

How the data were processed

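Total RNA libraries, stranded and ribosome-reduced with spike-ins per the labels' protocols, were analysed as 2 replicates of 1 group. Per the file headers and notes, the authors quantified against mm10 and GENCODE M21. The deposited gene and transcript tables hold expected counts and TPM in the column layout of RSEM (first quantification), and a further deposited transcript table holds estimated counts and TPM in that of kallisto (second quantification, summed per gene here). Which programs and versions made them is not given in the sources used here. Posterior standard deviations in the deposited tables (other values the authors gave) stood at or under 0.715% of the count for the expressed members. Counts were rounded, scaled by TMM (edgeR 4.0.16, R 4.3.3; genes with at least 10 counts in both libraries) and given a prior count of 0.5 for ratios. Tested genes had a mean TPM of 1 or more and a summed count of 20 or more. The ratio code was tested on simulated data. IIIb and IIIc were taken as the upstream and downstream of neighbouring, mutually exclusive exons of 140 to 160 bases that join the same next exon. Named were all expressed members, their transcripts with at least 10% of gene TPM in either quantification (a few of Fgfr1, Fgfr3, Fgfrl1 and the fusion-named genes are left out), up to 4 genes per pathway list and those at 0. Transcripts, genes and markers named beyond that rule, such as Fgfr1-218 or Scn10a, were chosen after their values were seen. Members and lists were chosen with earlier results of these data known. Intervals came from scipy 1.17.1 (Python 3.11.15, pandas 2.3.3, numpy 2.4.6). Alternatives covered the quantification, posterior mean TPM, rescaling, CPM, merged exon length, other scalings (DESeq2 1.42.0 size factors, upper quartile, total counts, spike-ins), filters and single libraries. Values and sequences of a few genes and exons in the lists are not reported here.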

Additional observations from a re-analysis of the deposited data

How the results depend on the processing

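The number of members expressed stayed at 15 or 16 under every other scale and at a TPM of 0.5, and was 7 at a TPM of at least 5. Group sums moved with the scale. For the secreted ligands they were 47.3 in the second quantification, 47.2 by posterior mean TPM, 96.5 rescaled to nuclear protein-coding genes, 72.7 in CPM and 37.5 by merged exon length, which was chosen after seeing the data. For the homologous factors the same scales gave 126.9, 78.2, 172.3, 67.5 and 32.2, and for the receptors 46.9, 37.3, 72.7, 71.6 and 16.0. Single libraries gave 42.8 to 45.2, 76.2 to 80.9 and 28.7 to 37.6 TPM. The Fgfr1 share of receptor TPM was 66.6% in the second quantification, 67.0% by posterior mean, 67.8% by merged exon length, and 70.0% to 72.0% in single libraries. The IIIc share was 74.5% for Fgfr2 and 57.6% for Fgfr3 in the second quantification, and was 84.0% to 87.3% and 71.7% to 77.2% in single libraries. Levels of expressed members were higher in the second quantification for 14 of 15 (median fold 1.32). The cause was not tested.

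No member was past 2-fold between the hearts at any scaling, nor at a fold of 1.5. Without the filter on TPM 27 members were tested and 1 was past 2-fold, Fgf5 (11 against 2 counts, log2 ratio 2.10, interval 0.15 to 5.56). Of all genes tested without that filter, 578 of 26503 were past 2-fold. Spike-in scaling left 2 members higher in replicate 1 and 13 in replicate 2. The leading transcript's share moved by more than the library spread for 8 of 13 members between quantifications. No paired analysis was possible because all samples belong to a single group. Depth limits the statements on ligands at 0 to 3 counts per library.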
